A study of Mus musculus with 15 samples.

Results

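GABAergic interneuron markers were followed here through the whole series: 10 genes, *Gad1*, *Gad2*, *Slc32a1*, *Sst*, *Pvalb*, *Vip*, *Npy*, *Cck*, *Lhx6* and *Dlx1*, chosen by symbol from 32658 features in the count tables. RNA-seq was performed on 15 libraries from C57BL/6J mice of 8 to 12 weeks in 6 groups. WT mice carried Drd3-Cre KI198 and Rosa26-fsTRAP, and cKO mice carried in addition Htr4-Floxed, so that exon 5 of the serotonin receptor gene *Htr4* is excised in Cre cells. All groups thus carry the Cre driver and the EGFPL10a transgene, and by the study's staining the driver, a Drd3 BAC transgene, marks granule cells and hilar mossy cells of the dentate gyrus and no interneurons. Polysome-bound mRNA of the tagged cells (IP) was sequenced from ventral dentate gyrus (vDG), and whole tissue mRNA (input) from vDG and from dorsal dentate gyrus (dDG). Each of the 3 kinds of sample had 3 WT and 2 cKO libraries. Every library was made from pooled mice (by the sample records 3 per IP and 2 per input, by the methods 1 male and 1 female). For inputs, the source field of the records gives cortex, whereas titles and brain region give dentate gyrus.

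GABAergic interneurons are the local inhibitory neurons of the hippocampus. They make GABA from glutamate with the decarboxylases encoded by *Gad1* and *Gad2*, and load it into synaptic vesicles with the transporter encoded by *Slc32a1*. Subtypes are told apart by neuropeptides and calcium buffers. Cells born in the medial ganglionic eminence (MGE) depend on the transcription factor *Lhx6* and include those with somatostatin (*Sst*) or parvalbumin (*Pvalb*), whereas cells born in the caudal ganglionic eminence (CGE) include those with *Vip* and many with *Cck*. *Npy* is shared by several subtypes, and *Dlx1* is a homeobox gene of forebrain interneurons. *Cck* is also transcribed by excitatory neurons of the hippocampus, so it is the least selective of the 10.

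Total counts on genes ranged from 19039295 to 30451430 per library, and 23117 features had a count in some library. Levels are given as CPM, counts scaled to library size, after TMM scaling over all 15 libraries. Counts over the whole *Htr4* gene were higher in cKO in the IP (log2 fold change 0.93) and in the vDG input (0.85), which does not check the deletion, since the other exons are still counted. The dissection marker *Trhr*, known from vDG, had 398 to 807 counts in vDG inputs and 3 to 16 in dDG inputs, and *Lct*, known from dDG, had 781 to 1315 and 2847 to 5509. *Dsp*, known from granule cells, lay at 31.2 to 86.8 CPM in vDG inputs and 142 to 236 CPM in dDG inputs, and *Tyro3*, known from CA pyramidal cells, at 4.68 to 8.12 and 1.76 to 2.94 CPM. The granule cell list (10 genes) summed to 2769 to 3159 CPM in vDG inputs and 3682 to 4360 CPM in the IPs.

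The subtype comparison turns on the neuropeptide genes, and the 250 bases before the RefSeq start site of 4 of them are shown (GRCm38.p6, 5′ to 3′ on the coding strand). Capitals mark the cAMP response element, TGACGTCA in its whole form and TGACGT in its short form, through which cAMP signaling is known to act on *Sst* and *Vip*. *Sst* is on chr16:23890845-23891094 (minus strand), *Vip* on chr10:5638968-5639217 (plus strand), *Npy* on chr6:49822460-49822709 (plus strand) and *Cck* on chr9:121495695-121495944 (minus strand).
Sst: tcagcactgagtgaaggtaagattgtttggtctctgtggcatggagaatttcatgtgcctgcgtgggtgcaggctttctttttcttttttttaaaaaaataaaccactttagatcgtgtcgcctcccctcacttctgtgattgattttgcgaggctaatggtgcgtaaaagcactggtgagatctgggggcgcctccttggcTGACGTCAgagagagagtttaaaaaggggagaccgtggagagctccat
Vip: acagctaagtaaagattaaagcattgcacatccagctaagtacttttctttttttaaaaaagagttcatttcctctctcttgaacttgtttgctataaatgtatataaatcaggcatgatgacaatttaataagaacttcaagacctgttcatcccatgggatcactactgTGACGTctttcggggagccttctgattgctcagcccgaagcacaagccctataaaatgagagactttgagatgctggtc
Npy: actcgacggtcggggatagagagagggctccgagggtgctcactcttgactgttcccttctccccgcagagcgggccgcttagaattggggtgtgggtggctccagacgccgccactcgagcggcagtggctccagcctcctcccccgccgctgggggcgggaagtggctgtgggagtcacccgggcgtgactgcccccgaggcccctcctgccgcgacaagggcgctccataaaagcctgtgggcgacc
Cck: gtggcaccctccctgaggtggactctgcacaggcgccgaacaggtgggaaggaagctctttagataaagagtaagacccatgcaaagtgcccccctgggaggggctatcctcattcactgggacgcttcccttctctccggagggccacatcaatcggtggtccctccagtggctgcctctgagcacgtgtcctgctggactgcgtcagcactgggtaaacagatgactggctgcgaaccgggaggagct

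Searched on both strands of the 300 bases around each start site (250 before, 50 after), the whole form was in the *Sst* promoter and in no other of the 13 promoters listed for the 10 genes, and in 1.79% of all 32851 promoters. In *Sst* it began 48 bases before the start. The short form, which lies within the whole form, was found in *Sst* and *Vip* and in 7.51% of all promoters, and in *Vip* it began 79 bases before the start. A homeodomain core, TAATTA, was in none of the 13 and in 5.29% of all. These are matches of letters only.

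In the WT vDG input, levels per kilobase of exon spanned nearly 3 orders of magnitude. *Cck* was highest with 272 ± 71.8 CPM per kilobase (SD, n = 3), followed by *Sst* with 70.3 ± 25.3, *Gad2* with 46.8 ± 0.626, *Npy* with 19.01 ± 3.80 and *Gad1* with 16.2 ± 0.661. *Pvalb* (4.76 ± 0.416), *Slc32a1* (3.94 ± 0.296), *Lhx6* (3.46 ± 0.946), *Dlx1* (1.19 ± 0.138) and *Vip* (0.444 ± 0.0737) were lower. The neighbours *Npy* and *Gad1*, and *Slc32a1* and *Lhx6*, overlapped in their libraries. In the WT IP the order changed: *Gad1*, with 13.5 ± 0.621 CPM per kilobase, stood above *Gad2* with 11.5 ± 1.0 and *Sst* with 7.58 ± 2.74, and *Cck* remained highest with 365 ± 71.2.

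**Figure D1:**
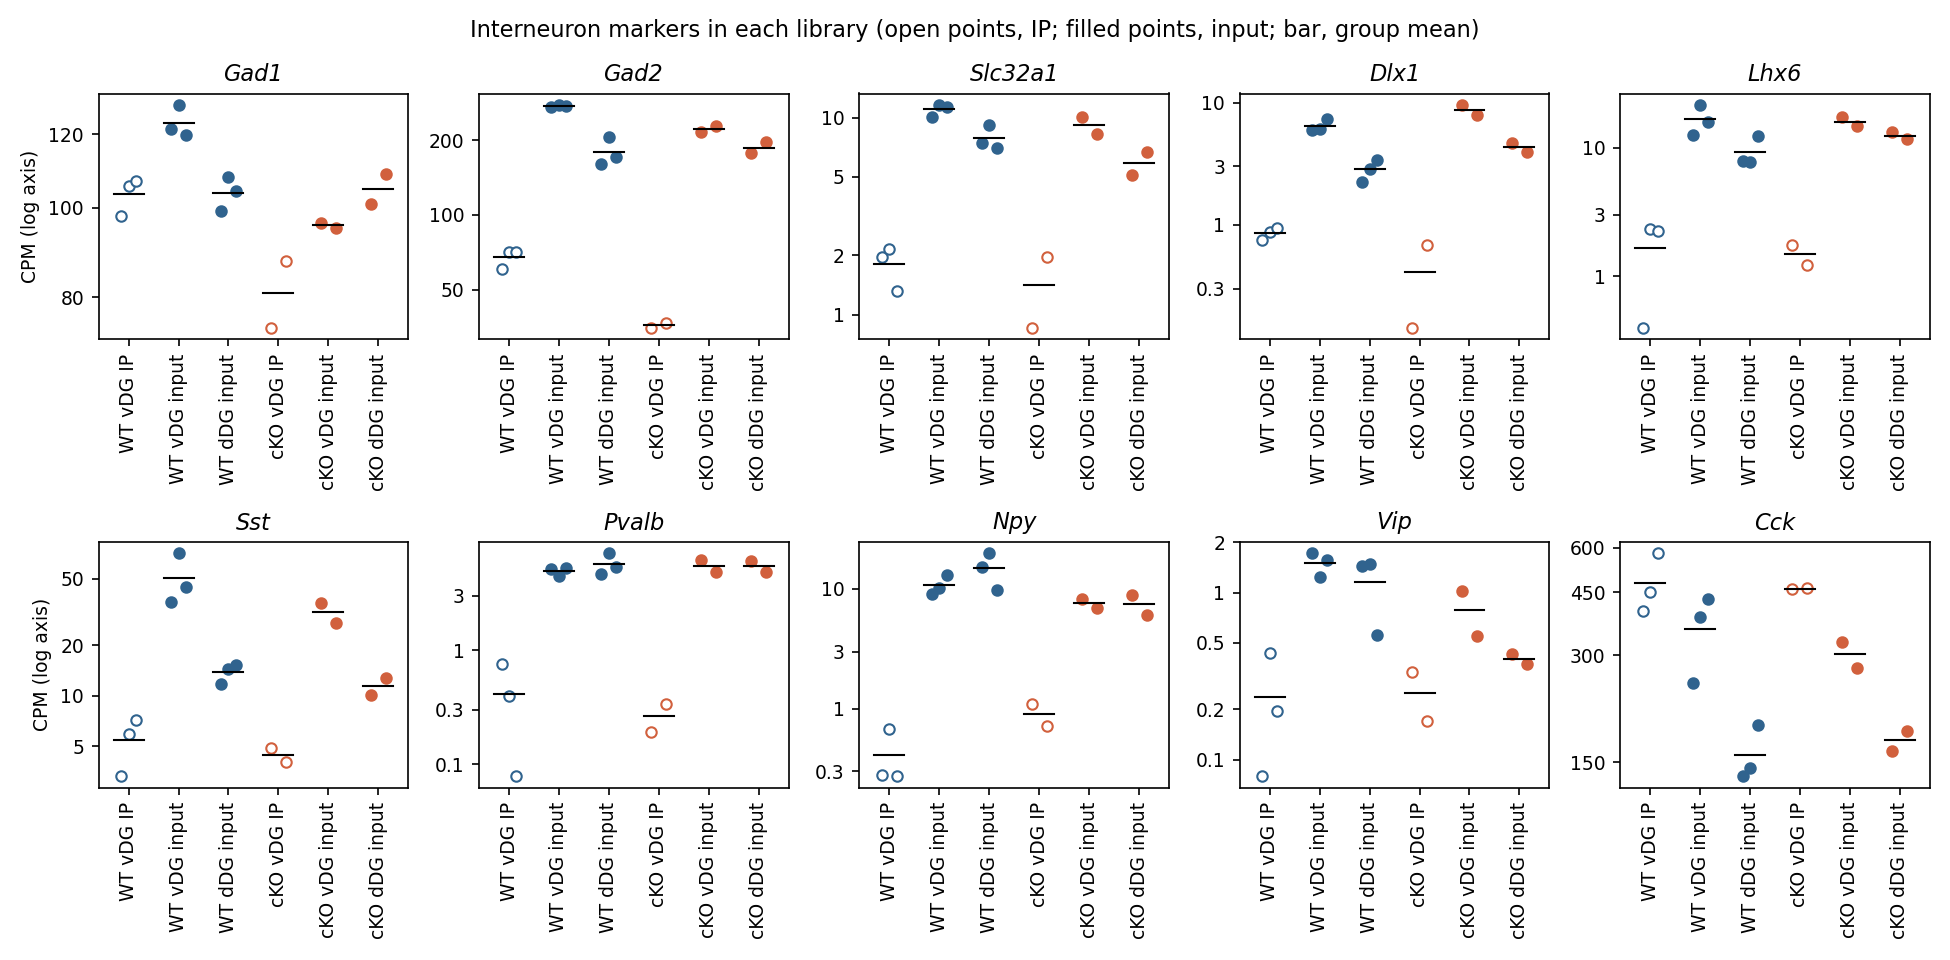
CPM of each of the 10 interneuron markers (vertical log axis, one panel per gene) in each library of the 6 groups (horizontal axis, 3 WT or 2 cKO libraries per group, bar for the group mean). *Gad2* lay at 60.7 to 71.2 CPM in the WT IPs against 271 to 278 CPM in the WT vDG inputs, whereas *Gad1* lay at 98.0 to 107 against 120 to 129 CPM.

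To see how far each marker was removed by the purification, IP was compared with input of the vDG in each genotype. In WT, 8 of 10 markers fell in the IP and *Gad1* and *Cck* did not pass, where 16.1% of the 15011 genes tested were lower. All 8 also met the rule for depletion, an FDR under 0.05 and less than 0.5 of input, as did 11.4% of genes tested. The median log2 fold change was -2.80 for the 10 markers and 0.00288 for all genes. In cKO, 7 of 10 fell (15.7% of 15126 genes were lower, and 10.7% met the rule for depletion, again all 7), with a median of -2.82 against -0.0281 for all genes. *Cck* rose, as did 11.8% of genes. With library size alone in place of TMM, the median of all genes was -0.13 in WT and -0.20 in cKO, and 487 genes were higher and 3022 lower in WT (1160 and 2422 with TMM), against 751 and 3230 in cKO (1790 and 2377). FDRs are from edgeR's quasi-likelihood test, adjusted over all genes tested. In bulk samples, fewer cells of a type and less RNA per cell cannot be told apart.

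The GABA synthesis genes went separate ways. *Gad2* was at 60.7, 70.7 and 71.2 CPM in the WT IPs and at 271, 278 and 276 CPM in the WT vDG inputs. It fell to 24.1% of input (log2 fold change -2.05, SE 0.119, FDR = 2.52e-08). In cKO it was at 35.1 and 36.8 CPM in the IPs and at 215 and 228 CPM in the inputs, a fall to 15.6% (log2 fold change -2.68, SE 0.107, FDR = 1.49e-08). *Gad1* was at 98.0, 106 and 107 CPM in the WT IPs and at 122, 129 and 120 CPM in the inputs. The WT groups did not overlap, but at 82.2% of input the difference did not pass (log2 fold change -0.28, SE 0.114, FDR = 0.0878). In cKO, *Gad1* was at 74.1 and 87.6 CPM in the IPs and 96.2 and 95.2 CPM in the inputs (-0.30, SE 0.114, FDR = 0.0726). With library size alone in place of TMM, *Gad1* passed as lower in both genotypes (log2 fold changes -0.41 and -0.47). In cKO it also passed with 10 counts required in every library (-0.34, FDR = 0.0411), with a replicate block (-0.30, FDR = 0.00631) and without cKO IP replicate 2 (-0.42, FDR = 0.0376). *Slc32a1* had 34 to 54 counts per WT IP and 263 to 339 per input, and fell to 16.1% of input in WT and 14.9% in cKO.

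In WT the neuropeptide genes held the lowest and the highest of the 10 values. *Npy* had 7, 17 and 7 counts in the WT IPs and 235, 295 and 334 in the inputs, the deepest fall in WT, to 3.77% of input (log2 fold change -4.73, SE 0.325, FDR = 1.38e-07). In cKO it had 23 and 17 counts in the IPs and 217 and 188 in the inputs, or 11.5% (-3.12, SE 0.346, FDR = 5.25e-05). *Sst* was at 3.30, 5.92 and 7.17 CPM in the WT IPs and at 36.1, 71.2 and 44.8 CPM in the inputs, and fell to 10.6% in WT (-3.24, SE 0.283) and 13.5% in cKO (-2.89, SE 0.202). *Vip* was scarce, with 2, 11 and 5 counts in the WT IPs and 45, 36 and 40 in the inputs. It fell to 15.7% in WT (-2.67, SE 0.532, FDR = 0.00215) and did not pass in cKO, where it had 7 and 4 counts in the IPs and 27 and 15 in the inputs (-1.70, 95% interval -3.37 to -0.02, FDR = 0.125).

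*Cck* stood apart from the other peptides. It was at 399, 451 and 580 CPM in the WT IPs and at 250, 384 and 430 CPM in the inputs, overlapping groups that differed by 0.40 on the log2 scale (SE 0.184, FDR = 0.134). With no count filter, with all 15 libraries in one fit and with a block for the replicate number it passed as higher in WT, with values of 0.42 to 0.45. In cKO it was at 459 and 463 CPM in the IPs and 326 and 276 CPM in the inputs, and rose by 0.56 (SE 0.105, FDR = 0.00207), a 1.48-fold enrichment.

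The MGE markers and *Dlx1* were all deeply depleted. *Pvalb*, the calcium buffer of fast-spiking cells, had 19, 10 and 2 counts in the WT IPs and 135, 130 and 133 in the inputs, or 8.21% of input (log2 fold change -3.61, SE 0.447, FDR = 4.57e-05). In cKO it had 4 and 8 counts in the IPs and 164 and 132 in the inputs (4.75%, -4.40, SE 0.457). *Lhx6* had 10, 59 and 58 counts in the WT IPs and 328, 628 and 401 in the inputs, so replicate 1 of the WT IP was low, and it fell to 9.85% in WT (-3.34) and 9.05% in cKO (-3.47). *Dlx1* had 19, 22 and 24 counts in the WT IPs and 155, 177 and 185 in the inputs, a fall to 13.1% (-2.93, SE 0.259). In cKO it had 3 and 16 counts in the IPs and 253 and 214 in the inputs, a fall to 4.71% (-4.41, SE 0.466). The antisense RNA *Dlx1as* overlaps *Dlx1*, and reads within the overlap cannot be told apart without strand. Its counts fell as well (-3.35 in WT and -4.03 in cKO). *Gad1os*, antisense to *Gad1*, had 0 to 12 counts per library.

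**Figure D2:**
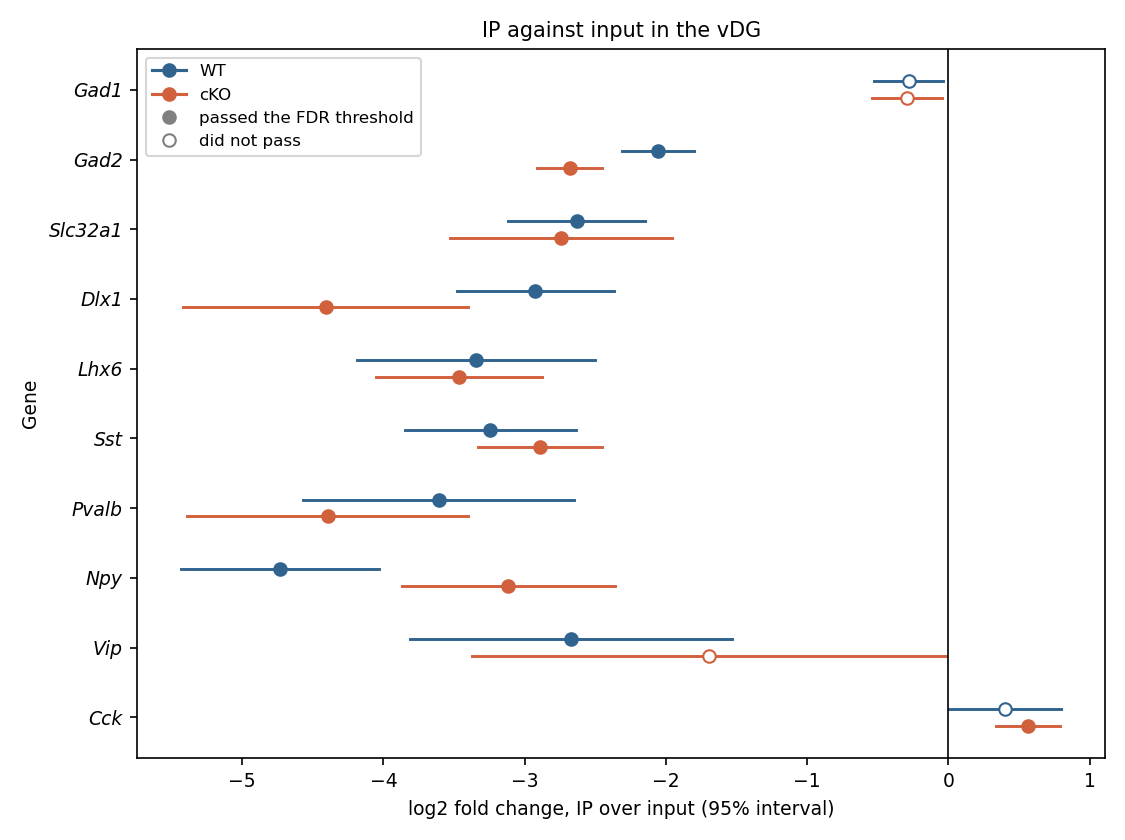
Log2 fold change of IP over input in vDG (horizontal axis, with 95% interval) for the 10 markers, in WT and cKO. *Npy* was lowest in WT at -4.73, *Dlx1* and *Pvalb* were lowest in cKO at -4.41 and -4.40, and *Gad1* and *Cck* lay near 0 or above it.

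No overlap between IP and input libraries was seen for 9 of 10 markers below input in WT, where 22.3% of genes tested lay below without overlap. In cKO it was 9 of 10 below and 1 above, where 31.4% of genes lay below and 34.1% above. A genotype by fraction interaction asked whether the depletion differed between WT and cKO. In edgeR 0 of 16093 genes passed (0%, with 497 at an unadjusted p under 0.05), and 0 in DESeq2. *Gad2*, *Npy* and *Dlx1* were the 3 markers with an unadjusted p under 0.05, and their interaction terms were -0.60 (SE 0.165), 1.64 (SE 0.502) and -1.45 (SE 0.533) on the log2 scale, each with an FDR of 1.

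Whether the markers were depleted to different depths was tested on ratios to *Gad2* within a library, which do not depend on the scaling. The test was an exact permutation test, two-sided, of the log2 ratio with 0.5 counts added, relabelling within genotype over 120 arrangements, with a smallest possible p of 0.017 and adjustment over 9 ratios. Of these 9, 7 passed. *Gad1* was 4.21-fold higher relative to *Gad2* in IP than in input (exact permutation, adjusted p = 0.0300). *Cck* was 7.26-fold higher (exact permutation, adjusted p = 0.0300). *Pvalb* was lower by 3.52-fold, *Dlx1* by 2.73-fold and *Lhx6* by 2.29-fold, each in both genotypes without overlap (exact permutation, adjusted p = 0.0300). *Npy* was lower by 2.99-fold and *Sst* by 1.62-fold (exact permutation, adjusted p = 0.0429). Neither passed when any 1 of the 3 WT IP libraries was left out (exact permutation, adjusted p of 0.05 to 0.0857). *Npy* was then at -1.77 to -1.45 and *Sst* at -0.79 to -0.57 on the log2 scale. Without cKO IP replicate 2 they were at -1.42 and -0.61. The *Npy* difference was -2.73 on the log2 scale in WT and -0.43 in cKO, and that of *Sst* -1.19 and -0.20, and in cKO both overlapped. *Dlx1* differed by -0.85 in WT and -2.05 in cKO. *Slc32a1* (1.30-fold lower, exact permutation, adjusted p = 0.263) and *Vip* (1.10-fold higher, 0.783) did not pass, and *Vip* joined values of opposite sign, -0.80 in WT and 1.06 in cKO. Without cKO IP replicate 2, *Slc32a1* passed at -0.66 on the log2 scale (exact permutation, adjusted p = 0.025; -0.38 with all libraries). With *Slc32a1* in place of *Gad2* none of the 9 passed. *Gad1* and *Cck* then differed by 2.46 and 3.24 on the log2 scale, without overlap in either genotype. Both reached the smallest possible p (exact permutation, adjusted p = 0.075), which cannot pass where only 2 of the 9 ratios reach it. *Pvalb* was at -1.43, *Npy* at -1.20 and *Dlx1* at -1.07, each without overlap in 1 genotype, and *Lhx6* at -0.81 and *Sst* at -0.31 overlapped in both. With *Gad2*, 4 passed without WT IP replicate 1, and none passed when any 1 of the 3 WT vDG input libraries or cKO vDG input replicate 1 was left out, although *Gad1* stayed at 2.06 to 2.10 and *Cck* at 2.75 to 2.94 on the log2 scale, with an adjusted p of 0.05 in the exact permutation test. Under the same omissions *Pvalb* stayed at -1.86 to -1.70, *Npy* at -1.63 to -1.49, *Dlx1* at -1.47 to -1.36, *Lhx6* at -1.28 to -1.10 and *Sst* at -0.80 to -0.56, with adjusted p of 0.05 to 0.171 (exact permutation).

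**Figure D3:**
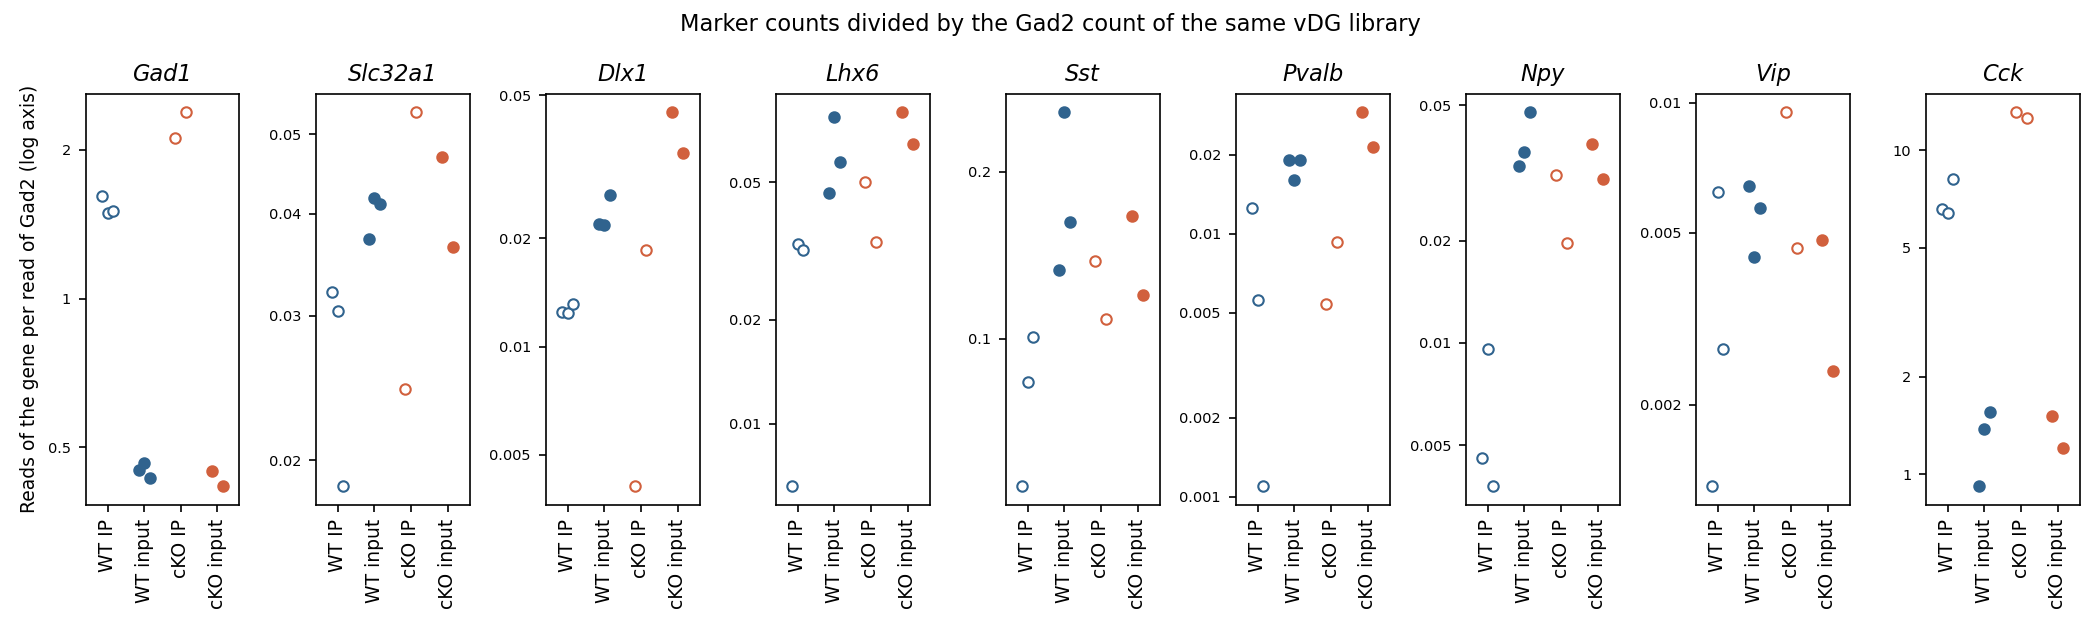
Counts of each of 9 markers divided by the *Gad2* count of the same vDG library (vertical log axis, a panel per gene) for WT and cKO IP and input libraries (horizontal axis). *Gad1* had 1.49 to 1.61 reads per *Gad2* read in the WT IPs and 2.11 and 2.38 in the cKO IPs, against 0.418 to 0.465 in the inputs, and *Cck* 6.39 to 13.1 against 0.921 to 1.56.

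Other genes of GABAergic neurons fell as well. All 7 of this list were lower in the WT IP (median log2 fold change -2.08) and 6 of 7 in cKO (median -2.38). In WT they included *Dlx6os1* (-3.72) and *Dlx5* (-2.77). Of 12 other MGE genes tested, 7 were lower and 1 was higher in both genotypes (medians -1.82 in WT and -1.53 in cKO), with *Sox6* at -2.99 in WT, and *Nos1*, a nitric oxide synthase, was the one that rose (0.70 in WT, 0.88 in cKO). Of 10 other CGE genes tested, 5 were lower in WT and 3 in cKO (medians -0.56 and -0.64), among them the serotonin receptor channel *Htr3a* (-2.71 and -2.15) and the cannabinoid receptor *Cnr1* (-0.95 and -1.06). *Calb2* (calretinin), in the CGE list, is also a mossy cell marker and was at -0.10 in WT. Of the glial lists, 8 of 8 astrocyte genes fell in WT (median -2.85) and 8 of 8 in cKO (-2.85), and 8 of 8 and 7 of 8 microglial genes (-3.28 and -3.12). Of 9 oligodendrocyte lineage genes 7 fell in each genotype (-2.69 and -2.40), and 1 rose in cKO (*Cspg4*, 0.90). Astrocyte genes summed to 121 to 172 CPM in the WT IPs against 879 to 1001 CPM in the inputs, and no marker list summed to 0 CPM in an IP.

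The inputs allow the markers to be compared along the dorsoventral axis. In WT, 5 of 10 were higher in vDG than in dDG (*Gad2*, *Sst*, *Cck*, *Lhx6* and *Dlx1*) and none was lower, where 9.26% of 15412 genes were higher. The marker median was 0.55 against -0.0076 for all genes. In cKO, 4 of 10 were higher (*Slc32a1*, *Sst*, *Cck* and *Dlx1*), where 8.56% of 15505 genes were higher, and the median was 0.50 against 0.00843. In cKO, 1328 genes were higher and 1314 lower with TMM, against 1778 and 943 with library size alone. In each genotype 7 of 10 markers lay above in vDG without overlap, as did 17.7% of genes in WT and 30.4% in cKO, and in cKO 1 lay below, as did 27.7%.

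*Sst* differed most. It was at 36.1, 71.2 and 44.8 CPM in the WT vDG inputs and at 11.8, 14.6 and 15.3 CPM in the WT dDG inputs, 3.64-fold higher in vDG (log2 fold change 1.86, SE 0.206, FDR = 7.64e-06). In cKO it was at 35.7 and 27.4 CPM in vDG and 10.1 and 12.7 CPM in dDG (1.46, SE 0.168, FDR = 2.91e-06). *Dlx1* was at 5.94, 6.07 and 7.29 CPM in WT vDG and 2.25, 2.87 and 3.40 CPM in dDG (1.16, SE 0.222, FDR = 0.00148). In cKO the difference of *Dlx1* was 1.003 (SE 0.216, FDR = 0.00257). *Cck* was at 250, 384 and 430 CPM in WT vDG and 137, 144 and 191 CPM in dDG (1.17, SE 0.172, FDR = 0.000146), and differed by 0.80 in cKO (SE 0.118).

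*Gad2* was at 271 to 278 CPM in WT vDG and 160 to 206 CPM in dDG (log2 fold change 0.61, SE 0.115, FDR = 0.00119), and in cKO it differed by 0.24 (SE 0.110, FDR = 0.143). *Slc32a1* passed in cKO (0.64, SE 0.210, FDR = 0.0408) and not in WT (0.48, SE 0.170, FDR = 0.0702). *Lhx6* passed in WT (0.82, SE 0.214, FDR = 0.0137) but not without WT vDG input replicate 2 (0.58, FDR = 0.122), WT dDG input replicate 1 (0.71) or WT dDG input replicate 2 (0.71), and the *Slc32a1* call was lost without cKO vDG input replicate 1 (0.48) or cKO dDG input replicate 1 (0.45) and in DESeq2 (FDR = 0.0832). With all 15 libraries in one fit, *Lhx6* in WT (FDR = 0.0856), *Slc32a1* in cKO (FDR = 0.176) and *Dlx1* in cKO (FDR = 0.0501) did not pass. *Npy* was at 9.0, 10.1 and 13.2 CPM in WT vDG and 15.1, 19.9 and 9.75 CPM in dDG (-0.47, FDR = 0.173), and passed as lower in vDG without WT dDG input replicate 3 (-0.71, FDR = 0.0197). *Pvalb* (-0.22 in WT, 0.01 in cKO), *Vip* (0.40 and 0.95) and *Gad1* (0.25 and -0.14) did not pass in either genotype, with 95% intervals for *Pvalb* of -0.66 to 0.22 and -0.47 to 0.49.

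**Figure D4:**
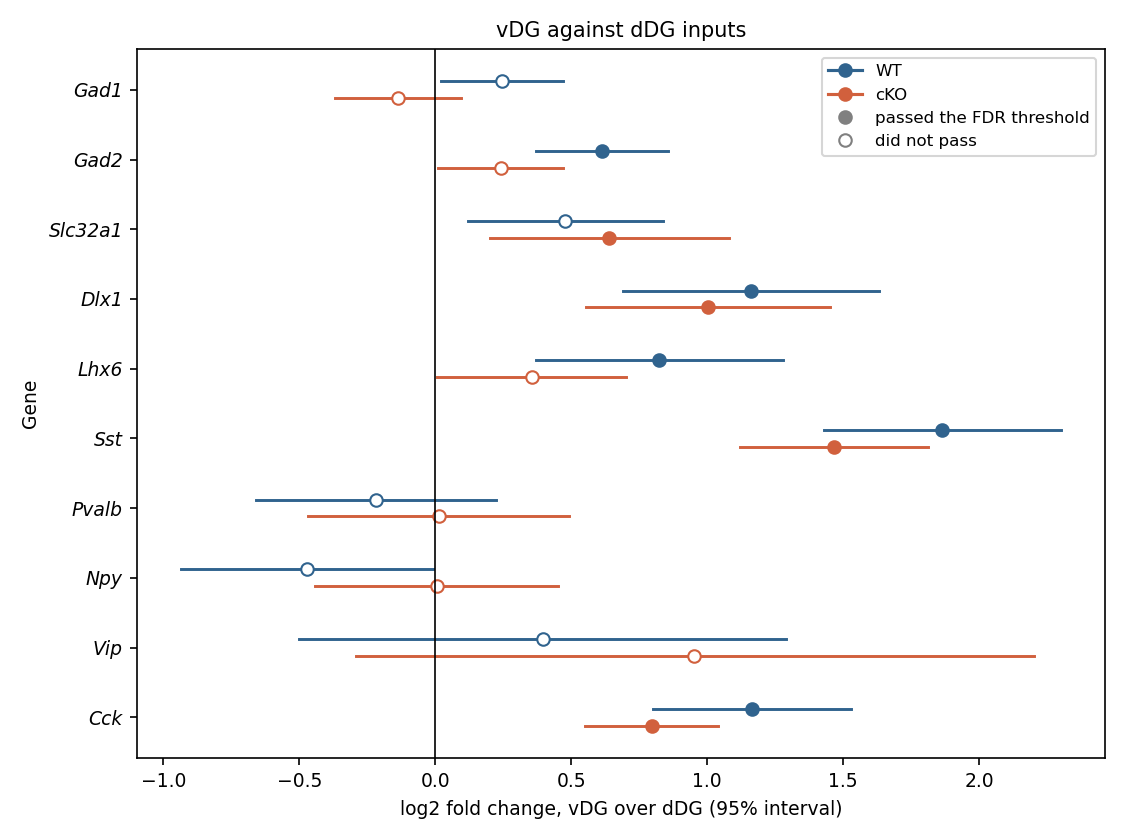
Log2 fold change of vDG over dDG input (horizontal axis, with 95% interval) for the 10 markers, in WT and cKO. *Sst* lay farthest to the right at 1.86 in WT and 1.46 in cKO, and *Pvalb* spanned 0 in both.

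A genotype by region interaction passed for 0 of 16306 genes in edgeR (0%, with 2010 at an unadjusted p under 0.05), and in DESeq2 for 62 higher and 188 lower genes, none of them a marker. Relative to *Gad2* within a library, *Sst* was 2.30-fold higher in vDG (exact permutation, adjusted p = 0.05), *Dlx1* 1.58-fold higher (exact permutation, adjusted p = 0.05) and *Gad1* 1.30-fold lower (exact permutation, adjusted p = 0.05). Each reached the smallest p that the 120 arrangements allow without overlap in either genotype, yet the adjusted p was not under 0.05, so none of 9 passed. *Cck* (1.45-fold higher) and *Pvalb* (1.44-fold lower) had adjusted p = 0.0600 in the same exact permutation test. Without cKO dDG input replicate 2, 4 of 9 passed (*Gad1*, *Sst*, *Npy* and *Dlx1*), and with *Slc32a1* as the reference 4 passed (*Sst*, *Npy*, *Pvalb* and *Dlx1*).

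Of the other lists in WT, 5 of 6 GABAergic genes tested were higher in vDG (median 0.60), as were 7 of 12 MGE genes (0.59), with the potassium channel *Kcnc2* at 1.65, and 6 of 10 CGE genes with 1 lower (0.75). The CGE genes were led by *Calb2* (5.01) and *Nr2f2* (3.61), and *Calb2* is a mossy cell gene too. In WT vDG, *Nr2f2* averaged 58.3 CPM in the IPs and 57.4 CPM in the inputs, and *Kcnc2* 69.7 and 77.2 CPM. The part of interneurons in the values of these genes was not tested. In cKO, 2 of 7, 2 of 12 and 6 of 10 were higher, with 2 CGE genes lower. Other cell types moved along the same axis: 8 of 10 granule cell genes were lower in vDG in WT (median -0.65) and 8 of 10 in cKO (-0.67). Of all genes tested, 6.09% were lower in vDG in WT and 8.47% in cKO. Of 8 astrocyte genes, 2 were higher in vDG in WT (median 0.18), and 1 was higher and 1 lower in cKO (-0.04). In WT they summed to 879 to 1001 CPM in vDG and 790.5 to 822.2 CPM in dDG. The mossy cell list (4 genes) summed to 74.3 to 98.9 CPM in vDG inputs and 8.38 to 12.2 CPM in dDG inputs. *Calb2* carried most of that gap (70.8 against 2.19 CPM on average in WT), *Drd2*, *Csf2rb2* and *Calcrl* averaged 3.29, 2.24 and 9.03 CPM in WT vDG against 1.93, 1.14 and 4.82 CPM in dDG, and the list median was 0.94. The CA pyramidal list (10 genes) summed to 124 to 129 CPM in vDG and 89.2 to 96.5 CPM in dDG, but in WT its members went both ways (4 higher, 2 lower, from -1.77 to 1.61). Of 5 choroid plexus genes tested, 3 were lower in vDG in WT (median -1.49). Their part in the marker differences was not tested.

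Finally, cKO was compared with WT in the IP and in both inputs, using the libraries that also enter the comparisons above. In the vDG IP, tested at an FDR of 0.1, the level used for this comparison in the study, 1 of 8 markers tested fell (*Gad2*) and none rose, where 0.35% of 14300 genes were lower. *Pvalb* and *Vip* had too few counts to be tested. *Gad2* was at 60.7, 70.7 and 71.2 CPM in the WT IPs and at 35.1 and 36.8 CPM in the cKO IPs, without overlap, at 53.2% of WT (log2 fold change -0.91, SE 0.147, FDR = 0.0618). The call was lost without WT IP replicate 2 (-0.88, FDR = 0.153), cKO IP replicate 1 (-0.89, FDR = 0.908) or cKO IP replicate 2 (-0.95, FDR = 0.230). *Gad1* differed by -0.36 (FDR = 0.353) and *Slc32a1* by -0.35 (95% interval -1.37 to 0.67). *Npy* (1.14, FDR = 0.520) and *Dlx1* (-1.03, FDR = 0.594) had the widest differences on 7 to 17 against 17 and 23 counts and 19 to 24 against 3 and 16 counts. In all, 3 of 8 lay below without overlap, as did 16% of genes, and 1 above, as did 15.1%. Astrocyte genes summed to 121 to 172 CPM in the WT IPs and 99.1 to 117 CPM in the cKO IPs, with 7 of 8 negative, a median of -0.45 and none of 8 past the threshold. Oligodendrocyte lineage genes were 8 of 9 negative (median -0.17) and microglial genes 4 of 5 tested (-0.25), and none passed. The list of progenitors and immature neurons had a median of 0.31 with 1 of 5 tested negative, and none passed. Granule cell genes summed to 3682 to 3906 CPM in the WT IPs and 4059 and 4360 CPM in the cKO IPs (2 of 10 negative, median 0.18). Mossy cell genes were 4 of 4 negative (median -0.33), and no gene of either list passed. Their part in the *Gad2* difference was not tested.

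In the vDG input, 0 of 10 markers passed in edgeR and 0 in DESeq2, where 2.33% of 15786 genes were lower in edgeR. An unadjusted p under 0.05 in edgeR was held by 5 of 10 markers and by 2338 of the 15786 genes. Without overlap, 5 of 10 markers lay below WT (*Gad1*, *Gad2*, *Sst*, *Vip* and *Npy*), as did 19.1% of genes, and 1 above (*Dlx1*), as did 13.2%. *Sst* came nearest, at 36.1, 71.2 and 44.8 CPM in WT and 35.7 and 27.4 CPM in cKO (log2 fold change -0.67, SE 0.202, FDR = 0.0754). It passed without WT vDG input replicate 1 (-0.87, FDR = 0.00106), with no count filter and with a replicate block. *Vip* had 36 to 45 counts in WT and 27 and 15 in cKO (-0.92, SE 0.450, FDR = 0.342). *Gad1* was at 120 to 129 CPM in WT and 95.2 and 96.2 CPM in cKO (-0.36, SE 0.126, FDR = 0.155), and *Dlx1* at 5.94 to 7.29 and 7.86 and 9.63 CPM (0.46, SE 0.200, FDR = 0.276). Astrocyte genes summed to 879 to 1001 CPM in these WT inputs and to 734 and 739 CPM in cKO (3 of 8 lower), with 8 of 8 negative and a median of -0.41. Microglial genes were 8 of 8 negative (median -0.62) and endothelial and mural genes 7 of 8 (-0.53), none past the threshold. Of 9 oligodendrocyte lineage genes 6 were negative (median -0.32) and 1 was lower. Of 5 choroid plexus genes tested 3 were negative (median -0.09) and 1 was higher. Of the granule cell genes 5 of 10 were negative (median 0.03) and 1 was lower (*Dsp*, -0.94, FDR = 0.0156), and their sum was 2769 to 3089 CPM in WT and 3083 and 3159 CPM in cKO. The part of these cell types in the marker values was not tested.

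In the dDG input, 0 of 10 markers passed in edgeR and 1 in DESeq2 (*Npy*, lower). In edgeR, 3 of 10 had an unadjusted p under 0.05, as did 1881 of 15383 genes. Of 15383 genes, 0.026% were lower in edgeR and 0.683% in DESeq2. *Npy* had 337, 402 and 298 counts in WT and 227 and 131 in cKO, or 15.1, 19.9 and 9.75 CPM against 8.86 and 6.12 CPM (log2 fold change -0.98, SE 0.262, FDR = 0.171). It passed without WT dDG input replicate 3 (-1.21, FDR = 0.0307), with a replicate block (-1.23, FDR = 0.0227) and with no count filter (-0.98, FDR = 0.000119). *Vip* had 32, 30 and 17 counts in WT and 11 and 8 in cKO (-1.49, SE 0.599, FDR = 0.336), and *Slc32a1* differed by -0.42 (SE 0.207). *Dlx1* was at 2.25, 2.87 and 3.40 CPM in WT and 4.68 and 3.97 CPM in cKO (0.60, SE 0.268, FDR = 0.388). *Gad1* and *Gad2* differed by 0.01 and 0.06, with 95% intervals of -0.21 to 0.24 and -0.20 to 0.32. In all, 3 of 10 lay below without overlap, as did 15.7% of genes, and 1 above, as did 13.7%. The choroid plexus list (6 genes) summed to 39.8 to 158 CPM in WT dDG and 23.2 and 28.3 CPM in cKO, a gap carried mostly by *Ttr* (4.13 to 120 CPM against 1.59 and 4.14 CPM), with none of 5 tested past the threshold. Microglial genes were 8 of 8 negative (median -0.51) and endothelial and mural genes 7 of 8 (-0.61), none past the threshold. The part of these cell types in the marker values was not tested.

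**Figure D5:**
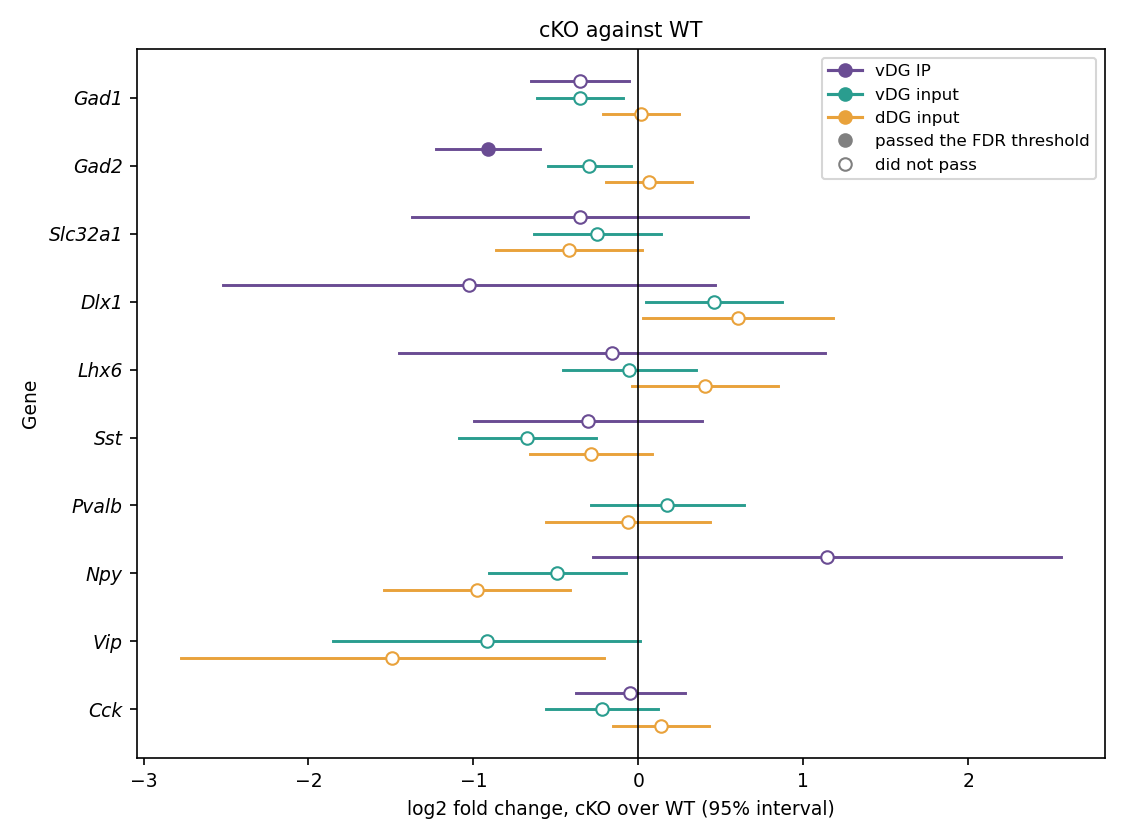
Log2 fold change of cKO over WT (horizontal axis, with 95% interval) for the 10 markers, in the IP of vDG and in the inputs of either region. *Gad2* in the IP at -0.91 is the value that passed its threshold, and *Pvalb* and *Vip* have no IP value because they were not tested there.

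Relative to *Gad2*, none of 9 ratios passed between cKO and WT inputs over 100 relabellings within region. The smallest p these allow is 0.01, which is 0.09 after adjustment where 1 ratio alone reaches it, so no single ratio could pass. *Dlx1* was 1.57-fold higher in cKO without overlap in either region (exact permutation, adjusted p = 0.0900). *Vip* was 2.06-fold lower (exact permutation, adjusted p = 0.180) and *Npy* 1.52-fold lower (exact permutation, adjusted p = 0.210). In the other lists of interneuron genes, *Nos1* (-0.62, FDR = 0.0174) and *Cnr1* (-0.49, FDR = 0.0379) fell in the cKO vDG input, and no gene of these lists passed in the IP or the dDG input. In the IP, *Nos1* averaged 275 CPM in WT and 206 CPM in cKO (-0.42, FDR = 0.311), above its vDG input means of 166 and 107 CPM. *Cnr1* averaged 106 and 70.4 CPM in the WT and cKO IPs, against 202 and 142 CPM in the vDG inputs. The part of interneurons in these changes was not tested. The medians of the 10 markers were -0.33 in the IP (over the 8 tested), -0.27 in the vDG input and -0.03 in the dDG input, against -0.00193, 0.0112 and -0.0223 for all genes.

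Across the 15 libraries, the genes with the profile most like each marker (Pearson's r of log2 CPM among 10368 genes with a mean of at least 5 CPM) are given as a description, since all points share the contrast of IP and input. They were *Tcf7l2* for *Gad2* (r = 0.982), *Sfxn5* for *Slc32a1* (0.984), *Bcl2* for *Sst* (0.973), *Decr1* for *Pvalb* (0.985), *Tmem44* for *Lhx6* (0.982), *Nrarp* for *Npy* (0.979), *Srebf1* for *Vip* (0.924), *Hivep1* for *Dlx1* (0.959), *Pcdh10* for *Gad1* (0.895) and *Wdr6* for *Cck* (0.971). Among the markers, *Gad2* and *Slc32a1* followed each other (r = 0.957), *Gad1* and *Gad2* less so (0.719), and *Cck* ran against *Pvalb* (-0.743) and *Npy* (-0.728). *Gad1* and *Gad2* are both on chromosome 2, at 70553072 to 70602014 and 22622205 to 22693874 of GRCm38.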

How the data were processed

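Gene level read counts of 15 RNA-seq libraries were used as deposited by the authors, without normalization. According to the methods, RNA was amplified, reads were aligned to mm10 with STAR 2.4.2a, duplicates were removed with SAMtools 0.1.19-444, and reads were counted with HTSeq in union mode. The library kits do not mark strand. No molecular identifiers are named, so precision rests on replicates and on 19039295 to 30451430 counts on genes per library. Rows for reads outside genes or ambiguous (11.26 to 18.74% and 2.5 to 8.6% of all reads per library) were left out. The authors' tables of comparisons, which hold DESeq2 fold changes, p-values and normalized counts, were not used.

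Per comparison, libraries of the 2 groups were scaled by TMM, filtered by filterByExpr and tested with the quasi-likelihood F-test of edgeR 4.0.16 in R 4.3.3 (two-sided, Benjamini-Hochberg FDR over all genes tested, threshold 0.05, or 0.1 for cKO against WT in the IP). Interactions used 4 groups. Standard errors were derived from the F statistics, and 95% intervals used the test's degrees of freedom. Groups came from the sample titles. Replicates differed beyond sampling noise (chi-square per degree of freedom of 13.5 or more in every pair), and nothing says whether pools came from separate litters. No source states that a replicate number marks a shared homogenate or litter, and inputs were taken from lysate before the IP. Alternatives included DESeq2 1.42.0, other scalings and filters, a replicate block and leaving out each library. Ratios were tested by exact permutation in Python 3.11.15, and scripts were tested on simulated data. Promoters are from the RefSeq table for GRCm38.p6, which held all 10 genes, and gene positions from GENCODE M21.

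The markers and gene lists were chosen with earlier results of these data known. All 10 markers were named, from each other list at most 4 genes per comparison (lowest FDR), the most alike genes (of 3 computed per marker, the first is given), and the dissection markers and *Htr4* as checks. *Dlx1as*, *Gad1os*, *Cspg4*, the mossy cell genes, *Ttr*, *Dsp* in cKO against WT, and the IP levels of *Nos1*, *Cnr1*, *Nr2f2* and *Kcnc2* were named after their values were seen.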

Additional observations from a re-analysis of the deposited data

Results flagged for a closer look

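Of the 10 markers, 3 had differences of opposite sign under the same contrast in different samples, with no overlap between the groups compared. Between genotypes this held in the IP and the vDG input together for 2 of 8 markers and 0.712% of 14183 genes, and in the IP and the dDG input for 2 of 8 and 2.1% of 13966. Between regions it held in WT and cKO for 1 of 10 and 2.4% of 15121.

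*Npy* was higher in the cKO IP than in the WT IP (log2 fold change 1.14) and lower in the cKO inputs of vDG (-0.49) and dDG (-0.98). *Dlx1* was lower in the cKO IP (-1.03) and higher in the cKO inputs of vDG (0.46) and dDG (0.60). None of these values passed its threshold in edgeR. For vDG the difference between IP and input was tested as the genotype by fraction interaction, and neither *Npy* (1.64, FDR = 1) nor *Dlx1* (-1.45, FDR = 1) passed. The difference between the IP and the dDG input was not tested. The IP values rest on 7 to 23 counts of *Npy* and 3 to 24 counts of *Dlx1* per library. For *Npy*, WT IP replicate 2 and cKO IP replicate 2 both had 17 counts. They lay apart by scaling alone, at 0.676 and 0.723 CPM.

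*Gad1* was higher in vDG than in dDG inputs in WT (0.25) and lower in cKO (-0.14), neither past the threshold, and the genotype by region interaction did not pass either (-0.38, SE 0.153, edgeR FDR = 0.314).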

How the results depend on the processing

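Counts of markers called changed as follows. With 10 counts in every library required, 5 markers were called in the WT IP against input, since fewer were tested. In cKO against WT, 0 to 1 markers were called in the vDG IP when each library was left out in turn. In the vDG input it was 1 with no count filter, 1 with the replicate block, and 0 to 1 when leaving out a library. In the dDG input it was 1 in DESeq2, 1 with no count filter, 1 with the replicate block, and 0 to 1 when leaving out a library. In cKO vDG against dDG inputs it was 2 with all 15 libraries in one fit. The cause of these changes was not tested. Of the marker to *Gad2* ratios, 0 passed in IP against input with *Slc32a1* as the reference and 0 to 7 when leaving out a library, and in vDG against dDG 4 passed with *Slc32a1* and 0 to 4 when leaving out a library. The other counts of markers or ratios called stayed within 1.5 times under the alternatives run.

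Counts over all genes moved further; ranges are over leaving out each library in turn. In cKO against WT, the 50 genes lower in the IP became 277 in DESeq2, 104 with library size alone, 297 with no count filter, 370 with all 15 libraries in one fit and 0 to 149 (0 without WT IP replicate 2 or cKO IP replicate 1). The 368 lower in the vDG input became 572, 610 and 134 in DESeq2, with no filter and with all 15, and 4 to 587 (4 without cKO vDG input replicate 1). The 4 lower in the dDG input became 105 in DESeq2, 243 with no filter, 75 with the block, 0 with all 15 and 0 to 63. In IP against input, genes higher in WT became 755 with 10 counts in every library, 2378 with all 15 and 588 to 1584 (588 without WT vDG input replicate 1), and in cKO 2736 with the block and 1059 to 1946, with 1193 to 2685 lower (lowest without cKO vDG input replicate 1). In cKO vDG against dDG, 688 were higher and 672 lower with all 15, 1986 lower with the block, and 794 to 1540 higher and 634 to 1544 lower (lowest without cKO dDG input replicate 2). With no filter, 7 higher and 5 lower genes passed the genotype by fraction interaction. By region, 120 and 242 did, with 3 and 8 under the block and up to 12 and 46 leaving out a library. Genes at an unadjusted p under 0.05 were 361 to 1001 by fraction and 780 to 2220 by region. Markers at this level were 1 to 5 in the vDG input (1 without cKO vDG input replicate 2, 3 with the block) and 1 to 6 in the dDG input (6 with the block).

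Sign changes were confined to uncalled values. With the replicate block, cKO against WT in the IP gave 0.12 for *Cck* and 0.45 for *Lhx6*. *Npy* in cKO vDG against dDG was -0.000893 in DESeq2, -0.00303 with DESeq2's size factors in edgeR and -0.00262 with all 15 libraries in one fit. When each library was left out in turn, cKO against WT ranged in the IP from -1.07 to 0.11 for *Slc32a1*, -0.16 to 0.12 for *Cck* and -0.62 to 0.16 for *Lhx6*. It ranged in the vDG input from -0.0149 to 0.35 for *Pvalb* and -0.22 to 0.18 for *Lhx6*, and in the dDG input from -0.0297 to 0.061 for *Gad1*, -0.0115 to 0.19 for *Gad2* and -0.24 to 0.12 for *Pvalb*. In cKO vDG against dDG, *Npy* ranged from -0.23 to 0.30 and *Pvalb* from -0.20 to 0.18. Ratios to *Gad2* ranged from -0.12 to 0.37 (*Vip*, IP against input), -0.000363 to 0.48 (*Vip*, vDG against dDG) and -0.0179 to 0.18 (*Cck*, cKO against WT). Where a group is left with 1 library, that library is assumed to vary like the other group. *Vip*, *Pvalb*, *Npy* and *Dlx1* had 2 to 24 counts per IP, which limits their precision there.

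The replicate numbers were not taken as pairs: same-numbered WT IPs and inputs correlated by 0.438, -0.123 and -0.275 in their deviations from the group means, and WT vDG and dDG inputs by 0.383, -0.081 and 0.242. With 2 libraries a group, same-numbered cKO IPs and inputs correlated by 0.441 and cKO vDG and dDG inputs by 0.114, with the opposite sign for unlike numbers. The block used the numbers of the titles, and the file names number the cKO dDG inputs otherwise (2 and 3), a choice whose effect on blocked values was not tested. The block also took past the threshold *Slc32a1* in WT and *Gad2* in cKO in vDG against dDG.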
